A study of Rattus norvegicus with 8 samples.

Results

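The miR-181 family of the rat was measured as its 4 mature 5p strands, rno-miR-181a-5p, rno-miR-181b-5p, rno-miR-181c-5p and rno-miR-181d-5p. They were taken from the array by name, as the miRNAs whose names begin with rno-miR-181a, rno-miR-181b, rno-miR-181c or rno-miR-181d. That prefix is carried by 10 of the 758 rat miRNAs on the array, of which 6 are the opposite, 3p strands of the same hairpins. The family was picked with the contrast between the groups already known for miR-181b-5p. For that reason the differences of its members between the groups are given below as descriptions, without p-values.

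Total RNA came from the prostatic urethra of male SD rats (Sprague Dawley, 10 to 12 months old), collected 5 days after surgery. In the TULP group (n = 4), a thulium laser had vaporized the lining of the prostatic urethra, which simulates the human operation transurethral laser prostatectomy. The instrument was passed through the opened abdomen and bladder, whereas the sham group (n = 4) had the abdominal incision without laser and without a bladder incision. Each animal gave 1 array with a single dye. Titles, tissue names and treatment entries place the arrays in groups, but the free-text description of each TULP sample also speaks of sham surgery, and the protocol entry of all 8 samples names the laser operation. Groups here follow the titles.

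miRNAs are short RNAs that guide a silencing complex to messenger RNAs, mainly through pairing of their seed, the stretch near the 5′ end. The miR-181 members are known from lymphocytes, where miR-181a tunes the strength of T-cell receptor signalling, and from endothelium, where miR-181b restrains NF-κB signalling by acting on an importin. They are also found in many other tissues, brain and muscle among them.

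The mature sequences are shown first, because the family is defined by its seed and because the probes that measured it tell the members apart by few bases. They come from RefSeq (rat assembly GRCr8), and capitals mark the seed, bases 2 to 8.
miR-181a-5p: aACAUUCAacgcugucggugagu
miR-181b-5p: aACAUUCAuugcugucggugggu
miR-181c-5p: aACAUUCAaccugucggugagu
miR-181d-5p: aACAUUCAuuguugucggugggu
The seed ACAUUCA was the same in all of them, and among 693 mature rat miRNAs in the table it was found in these 4 alone (0.577%). Counted from the 5′ end, miR-181b-5p differed from miR-181a-5p by A9U, C10U and A21G, and 20 of 23 bases were identical. miR-181d-5p differed from miR-181b-5p by C12U alone. miR-181c-5p, at 22 bases, was miR-181a-5p without 1 base, and the last 12 bases of both were identical.

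The genes lie in pairs. In the RefSeq annotation of GRCr8, Mir181a2 and Mir181b2 on chromosome 3 are separated by 986 bases inside the protein-coding gene Nr6a1, and a lncRNA, LOC120101539, covers them as well. Mir181a-1 and Mir181b1 on chromosome 13 are 61 bases apart in the lncRNA LOC108352541. Mir181c and Mir181d on chromosome 19 are 77 bases apart and lie in no other annotated gene. The files give probe positions in an older build, rn4, where probes of miR-181a-5p matched chr3:18650950-18650964 and chr13:51132539-51132553, and probes of miR-181b-5p matched chr3:18652030-18652043 and chr13:51132722-51132735. The signals of miR-181a-5p and miR-181b-5p therefore cannot be assigned to either of their 2 loci. The positions for the other pair were chr19:25667411-25667428 for miR-181c-5p and chr19:25667584-25667599 for miR-181d-5p.

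Each member was measured by 2 probes, each printed on 8 spots per array. The probes are shown because a probe that pairs with its own miRNA nearly pairs with a relative as well. Capitals mark the bases that would not pair with the nearest other member, when both are aligned at the 3′ end of the miRNA without gaps. For probe 1 of miR-181a-5p and of miR-181b-5p, where a pair of members is equally near, they mark the bases that fail to pair with at least 1 of them.
miR-181a-5p probe 1: acTcaccgacagCG
miR-181a-5p probe 2: actcaccgacagCGt
miR-181b-5p probe 1: acCcaccgacaGc
miR-181b-5p probe 2: acccaccgacaGca
miR-181c-5p probe 1: actcaccgacagGTtGAaT
miR-181c-5p probe 2: actcaccgacagGTtGAa
miR-181d-5p probe 1: acccaccgacaAcaat
miR-181d-5p probe 2: acccaccgacaAcaatg
All of them paired fully with their own miRNA, and none covered its whole seed. The probes of miR-181b-5p and miR-181d-5p were told apart by 1 base. Probe 1 of miR-181b-5p also had 1 mismatch to miR-181a-5p, and probe 2 had 2. The probes of miR-181a-5p had 2 mismatches to the nearest member and those of miR-181c-5p had 4 or 5, counted without gaps. Because miR-181c-5p is miR-181a-5p without 1 base, the count for miR-181c-5p overstates how far its probes are from miR-181a-5p. With that 1 base of miR-181a-5p looped out, they would pair with it at every base. How much of a probe's signal came from a relative was not tested. The signals of miR-181b-5p, miR-181c-5p and miR-181d-5p in particular are uncertain in this respect.

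miR-181a-5p was the only member detected on all 8 arrays. Its signal before normalization was lower on each TULP array than on each sham array. miR-181b-5p was detected on all 4 sham arrays and on no TULP array, miR-181c-5p on sham replicate 4 alone, and miR-181d-5p on no array. Before normalization the mean signal of all 4 was lower in the TULP group, and so was the signal of the arrays as a whole. In bulk tissue, fewer cells that make a miRNA and less of it per cell cannot be told apart. A miRNA counts as detected here where at least 1 of its probes had a total signal above 3 times the error that the image software gives for it.

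**Figure D1:**
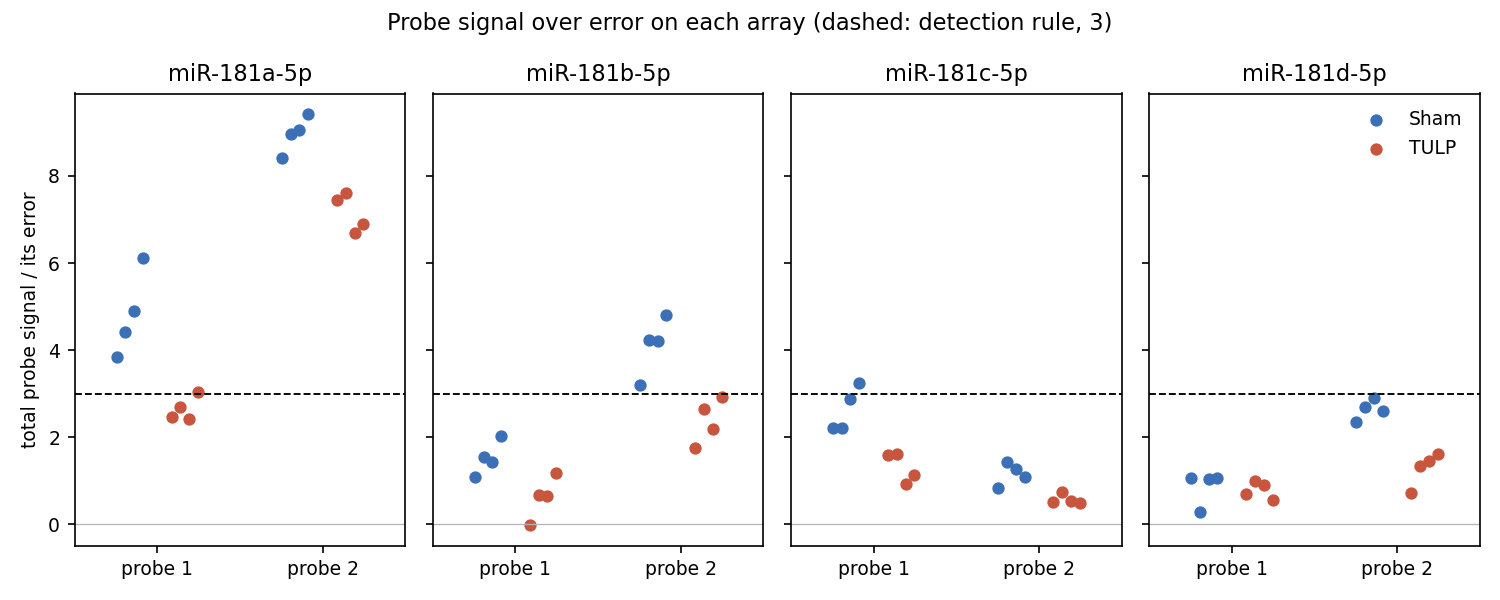
Total probe signal divided by its error (no unit) for both probes of each miR-181 member, with 1 point per array, sham arrays in blue and TULP arrays in red; the dashed line is the detection rule of 3. Probe 2 of miR-181a-5p lies above the line on all arrays (6.70 to 9.42), probe 2 of miR-181b-5p straddles it (1.76 to 4.80), and both probes of miR-181d-5p stay under it.

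miR-181a-5p had a signal, summed over the probes that passed this rule, of 22.3, 32.7, 31.2 and 44.4 on sham replicates 1 to 4. On TULP replicates 1 to 4 it was 15.8, 15.3, 12.0 and 16.2. These are background-subtracted intensities in the scanner's linear units. The groups did not overlap, and the brightest TULP array lay below the dimmest sham array. Probe 2 gave 17.6, 26.3, 24.7 and 34.9 across the sham arrays, against 15.8, 15.3, 12.0 and 12.2 across the TULP arrays. Probe 1 gave 4.67, 6.44, 6.50 and 9.56 across the sham arrays, against 3.60, 3.66, 3.33 and 4.03 across the TULP arrays. The sham mean was 1.86 times the TULP mean by probe 1 and 1.87 times by probe 2, so the probes gave nearly the same ratio.

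Probe 1 of miR-181a-5p lay close to the limit in the TULP group. Its signal was 3.83 to 6.11 times its error across the sham arrays, against 2.41 to 3.05 times across the TULP arrays. It passed on all 4 sham arrays and, in the TULP group, on replicate 4 alone. The summed signal of miR-181a-5p therefore rested on 1 probe on TULP replicates 1, 2 and 3 and on 2 probes elsewhere. The part left out was 18.6%, 19.3% and 21.7% of the signal of both probes on those arrays.

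After quantile normalization, which gives each array the same distribution of signals, miR-181a-5p had log2 values of 4.47, 4.74, 4.78 and 5.05 on the sham arrays (4.76 ± 0.24, SD, n = 4). The TULP arrays had 4.47, 4.14, 3.82 and 4.16 (4.15 ± 0.26, SD, n = 4). Here the groups met, because sham replicate 1 and TULP replicate 1 held the same normalized value. The difference, TULP minus sham, was -0.61 on the log2 scale with a standard error of 0.17 (limma, n = 4 per group), beside a median of -0.02 over the 151 miRNAs fitted. Counted from the most negative difference, it had place 30 of 151. With the signal of both probes added on every array, whether they passed or not, the difference was -0.41 with a standard error of 0.15, and with the brightest probe alone it was -0.47. All arrays lay on 1 slide in 2 rows. For passing probes, the difference was -0.91 within the first slide row, which held 1 sham and 3 TULP arrays. It was -0.50 within the other row, with 3 sham arrays and 1 TULP array.

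**Figure D2:**
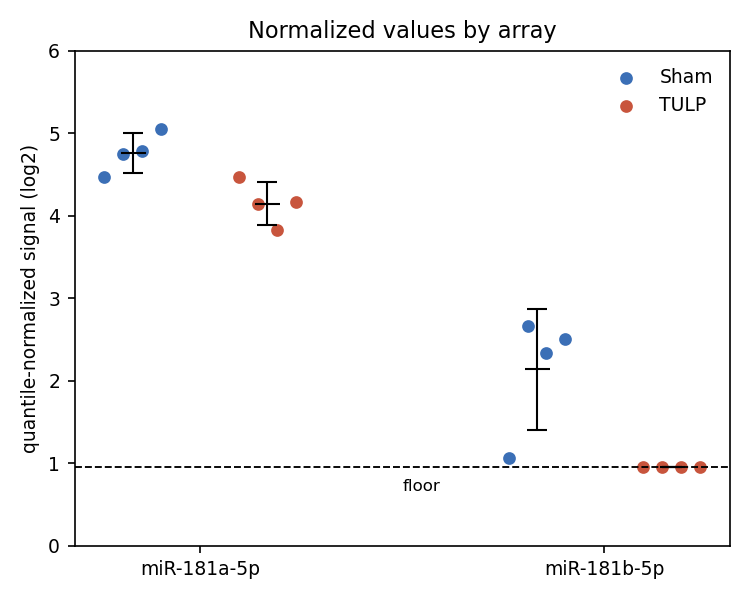
Quantile-normalized signal on the log2 scale of miR-181a-5p and miR-181b-5p, with 1 point per array, in replicate order within a group, and the mean with its SD (n = 4) in black; the dashed line is the floor of 0.96 to which lower values were raised. The groups of miR-181a-5p meet at 4.47, sham replicate 1 of miR-181b-5p lies just above the floor at 1.06, and its TULP arrays all lie at the floor.

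miR-181b-5p owed each of its detections to probe 2. The signal of this probe was 3.80, 6.11, 5.35 and 6.78 across the sham arrays, against 2.53, 3.58, 3.01 and 3.86 across the TULP arrays. The signal needed for detection, 3 times the error, was 3.56 to 4.33 across the sham arrays, against 3.95 to 4.31 across the TULP arrays. The groups overlapped in signal. TULP replicate 4, with 3.86, was not detected, while sham replicate 1, with a lower signal of 3.80, was detected because its error was smaller. The ratio of signal to error did not overlap, which detection on sham arrays alone already implies. It was 3.20 to 4.80 in the sham group and 1.76 to 2.93 in the TULP group.

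Probe 1 of miR-181b-5p, shorter by 1 base, did not pass on any array. Its signal was 1.08 to 2.04 times its error across the sham arrays, against -0.016 to 1.19 times across the TULP arrays. The sham mean of probe 2 was 1.70 times the TULP mean, and with both probes added the ratio was 1.82. At a limit of 2 times the error, miR-181b-5p was detected on 4 sham and 3 TULP arrays, and at 4 times on 3 sham arrays and 0 TULP arrays. TULP replicate 1, the dimmest array for probe 2, stayed undetected at each of these limits.

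On the log2 scale after normalization, miR-181b-5p had 1.06, 2.66, 2.33 and 2.50 on the sham arrays (2.14 ± 0.73, SD, n = 4). All TULP arrays lay at the floor of 0.96, so they carry no spread of their own. Sham replicate 1 stood just above the floor and the other sham arrays well above it. The fitted difference was -1.18 with a standard error of 0.34 (limma, n = 4 per group), place 5 of 151 from the most negative. Because the TULP values are set by the floor, the size of this difference is set by it as well: it was -2.18 with the floor halved and -0.40 with the floor doubled. No fold is given as a lower bound, because detection depends on the error of each probe: on TULP replicates 1 to 4 the lowest signal of a detected miRNA was 2.32, 3.42, 2.24 and 2.01, below the undetected signal of probe 2 on the same array. With both probes added on every array, passed or not, the difference was -0.80 with a standard error of 0.23, and the groups overlapped. For passing probes with the floor of 0.96, the difference was -1.54 within the first slide row and -1.06 within the other row. All TULP values in these differences lay at the floor.

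A call of differential expression needed an adjusted p under 0.05 (limma, Benjamini-Hochberg) and a change of more than 2-fold. Of the 2 members in the fit, miR-181b-5p met it, as did 9.27% of all 151 miRNAs in either direction and 3.97% in the direction of lower signal in the TULP group. It was also the fitted member whose normalized values did not overlap, beside 14.6% of all 151 in that direction and 29.1% in either. miR-181b-5p entered the fit through its 4 sham arrays alone, and its undetected TULP arrays were set to the floor. The lack of overlap and of spread in the TULP group thus follows largely from the detection calls and adds nothing to them. Before normalization, the signal of its probe 2 overlapped. The call of miR-181b-5p was lost in 13 of 24 alternatives in which it was fitted. Its change fell under 2-fold with the floor doubled (-0.40), with both probes added (-0.80), with the brightest probe alone (-0.70), with normexp background correction (-0.06) and without sham replicate 2 (-0.99). Its adjusted p missed 0.05 with the slide row or the replicate number as a block, at 2 times the error, and without sham replicate 3 or 4 or TULP replicate 2, 3 or 4. miR-181a-5p, whose change was under 2-fold, met the call in 3 of 26 alternatives, those that left the array-wide fall of signal in place. These used passing probes alone. Before normalization its difference was -1.11 with passing probes and -0.87, under 2-fold, with both probes added on every array. Nothing is read from these counts, since the family was chosen by this contrast.

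miR-181c-5p passed on sham replicate 4 alone, by probe 1, with a signal of 4.25 at 3.25 times its error. The signal of this probe was 2.54, 2.95 and 3.46 on the other sham arrays, and TULP replicates 1 to 4 had 2.28, 2.14, 1.24 and 1.44. Each TULP array was below each sham array. The ratio to the error was 2.20 to 3.25 in the sham group and 0.925 to 1.62 in the TULP group, so that a limit of 2 times the error gave 4 sham arrays and 0 TULP arrays. The sham mean was 1.86 times the TULP mean by each probe. Detected on 1 array, miR-181c-5p was not among the 151 miRNAs fitted. With both probes added, passed or not, its difference in a fit without the detection filter was -1.03 with a standard error of 0.26. Its groups did not overlap after normalization. The same fit gave miR-181d-5p -0.71 with a standard error of 0.11, also without overlap, while miR-181a-5p and miR-181b-5p overlapped. How many of all miRNAs did not overlap in this fit was not computed.

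miR-181d-5p did not pass on any array, so only a signal under the detection limit can be described. Probe 2 gave 2.74, 3.66, 3.49 and 3.34 across the sham arrays, against 1.01, 1.77, 1.98 and 2.07 across the TULP arrays. These groups did not overlap, with 2.36 to 2.90 times the error in the sham group and 0.714 to 1.62 times in the TULP group. Probe 1 was level, with a mean of 1.03 in the sham group and 1.05 in the TULP group, and the ranges overlapped. The probes of this member thus disagreed in ratio, 1.94 by probe 2 against 0.979 by probe 1. Each of them is 1 base short of a full match to miR-181b-5p.

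Taken probe by probe before normalization, 4 of the 8 miR-181 probes were lower on every TULP array than on every sham array, beside 6.15% of all 1806 probes. Of the 4 that passed on at least 1 array, 3 did not overlap, against 27.4% of the 317 such probes on the array. Of the 4 that passed on no array, 1 did not overlap, against 1.61% of 1489. Probes of 1 miRNA, and of relatives that share most of their bases, measure overlapping sets of molecules and are not independent.

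**Figure D3:**
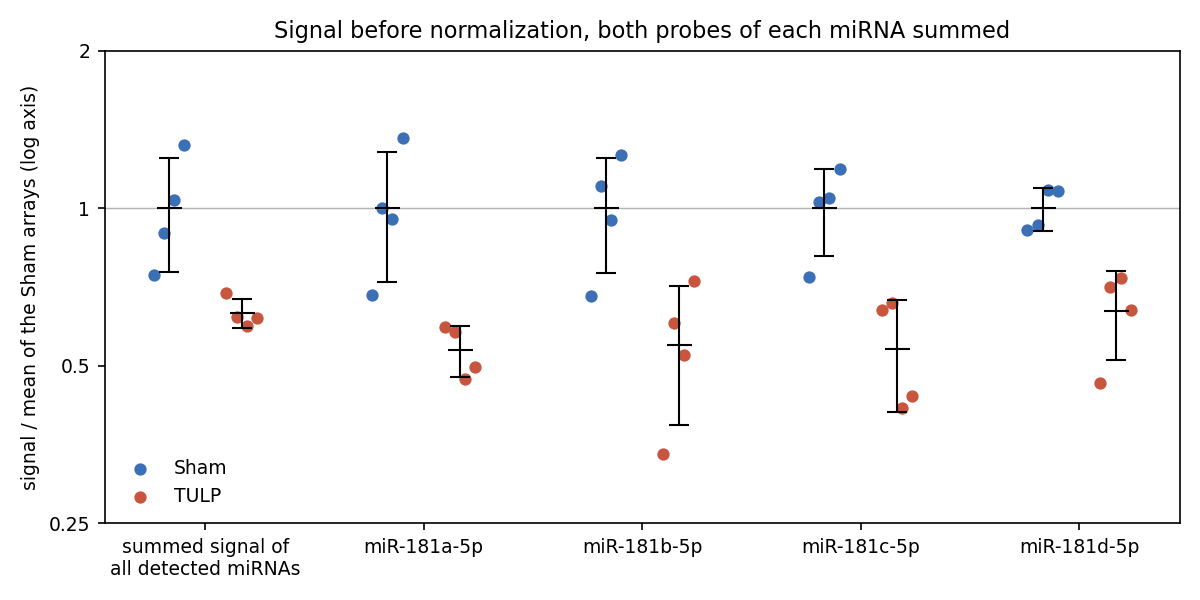
Signal before normalization divided by the mean of the sham arrays (log axis, no unit), for the sum over all detected miRNAs and for each miR-181 member with both probes added, with 1 point per array and the mean with its SD (n = 4) in black. The TULP arrays lie below the sham mean in each column, and sham replicate 1 is the lowest sham array in the summed signal and in all 4 members.

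The fall of the raw signals has to be read beside the signal of whole arrays. The summed signal of detected miRNAs was 21075 to 37357 across the sham arrays, against 16787 to 19464 across the TULP arrays, and the sham mean was 1.59 times the TULP mean. With both probes added, the ratio was 1.87 for miR-181a-5p, 1.82 for miR-181b-5p, 1.86 for miR-181c-5p and 1.57 for miR-181d-5p. The summed probe signals of miR-181a-5p, miR-181c-5p and miR-181d-5p did not overlap between the groups. In the direction of lower signal in the TULP group, this was so for 28.5% of the 151 miRNAs fitted. That share is a background for miR-181a-5p alone, because miR-181c-5p and miR-181d-5p were not among the 151. No share was computed for summed probes of miRNAs outside the fit, so these members have no matching background. For single probes, the share was 27.4% of the 317 that passed on at least 1 array, as probe 1 of miR-181c-5p did. It was 1.61% of the 1489 that passed on no array. On the log2 scale and with all probes added, miR-181a-5p fell by 0.87 before normalization. By this measure the median of the 122 miRNAs detected on all arrays fell by 0.54. Of those 122, 99 were lower in the TULP group and 30 fell by more than miR-181a-5p. As a share of the summed signal, miR-181a-5p had 0.106% to 0.129% in the sham group and 0.0915% to 0.108% in the TULP group, and miR-181b-5p had 0.0239% to 0.0323% and 0.0129% to 0.0308%. The ranges of both overlapped. These shares count both probes, passed or not, over the sum of detected signal. With passing probes alone, miR-181a-5p had 0.0717% to 0.0931% in the TULP group and the same shares as before in the sham group. The groups then did not overlap, but this sum leaves out probe 1 on TULP replicates 1, 2 and 3 and on no sham array. The lack of overlap thus follows from the detection rule. How many of all miRNAs did not overlap by this measure was not computed. With both probes, the shares of miR-181c-5p (0.0150% to 0.0191% and 0.0116% to 0.0177%) and of miR-181d-5p (0.0125% to 0.0187% and 0.0103% to 0.0190%) overlapped too.

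The 3p strands, which come from the other arm of the same hairpins, were at background. None of the 12 probes of their 6 names passed on any array, nor at 2 times the error. Their ratio of signal to error lay between -2.28 and 1.41, and the highest value was that of miR-181a-1-3p. The brighter probes of miR-181c-5p and miR-181d-5p stood above this range on all 4 sham arrays, while on TULP arrays they reached 1.62.

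The files also hold a total per miRNA stored by the image software, which for this family differed from the signal of its own probes. Of 1191 stored totals of detected miRNAs on the array, 352 were higher than the sum of the probes that passed, and in all 352 the excess equalled the stored total of the detected miRNA listed before it (within 1%). For miR-181b-5p the stored total was 26.1, 38.8, 36.5 and 51.2 on the sham arrays, which is its own signal with that of miR-181a-5p added. For miR-181a-5p it was 278, 267 and 230 on TULP replicates 1, 2 and 3, where the total of miR-16-5p or miR-17-5p had been carried over, and 16.2 on TULP replicate 4. Fitted on the stored totals, miR-181a-5p would be 2.31 higher in the TULP group on the log2 scale, the opposite direction to the signal of its probes. All values above therefore come from the probes.

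The table of log2 values that the authors deposited follows the probes. It gives miR-181a-5p 4.43, 4.72, 4.79 and 5.02 across the sham arrays, against 4.43, 4.12, 3.81 and 4.14 across the TULP arrays. miR-181b-5p has -0.22, 2.60, 2.32 and 2.50 across the sham arrays, against -3.32, the log2 of 0.1, on all TULP arrays. That placeholder, not a measured signal, sets the difference of -5.12 for miR-181b-5p in that table. miR-181c-5p has -0.22 on sham replicate 4 and the placeholder elsewhere, and miR-181d-5p has the placeholder throughout.

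**Figure D4:**
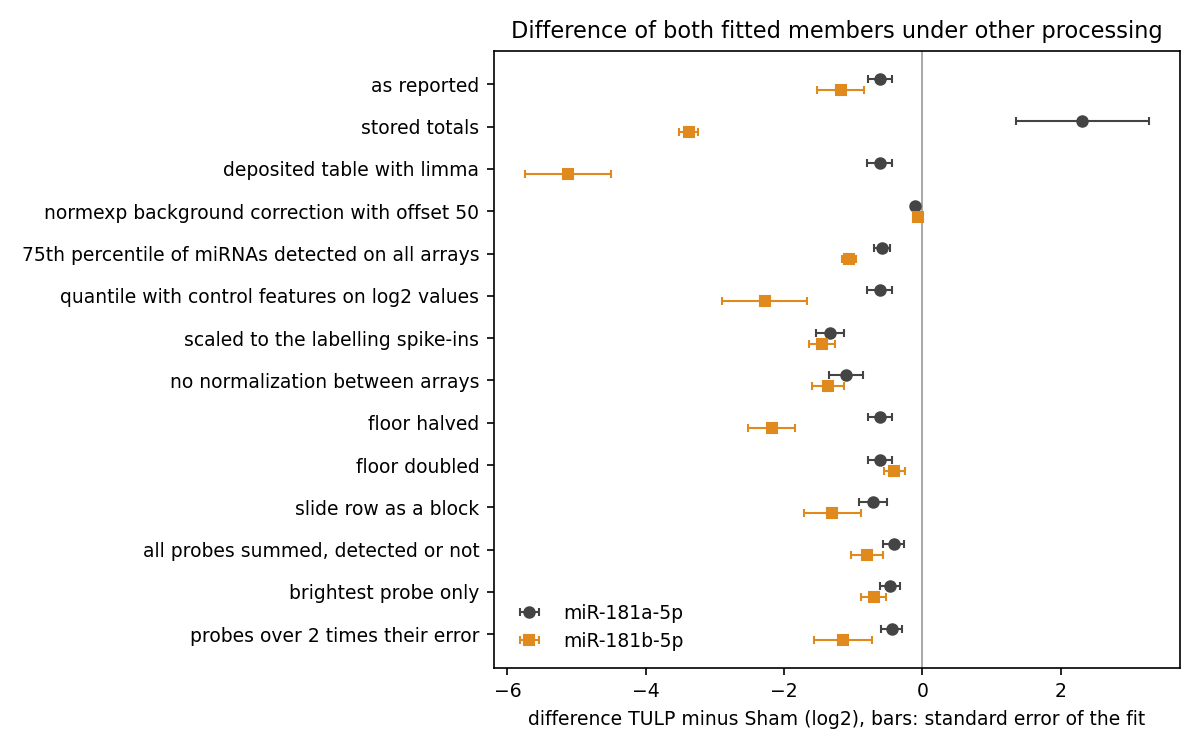
Difference between the groups (TULP minus sham, log2) of miR-181a-5p (circles) and miR-181b-5p (squares) as reported and under 13 other ways of processing the same arrays; bars are the standard errors of each fit. miR-181a-5p lies between -1.33 and -0.11 except with the stored totals (2.31), and miR-181b-5p ranges from -5.12 to -0.06.

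The plot of the difference under other processing shows how the members depend on the treatment of low signals. The difference of miR-181a-5p was -0.61 with the floor halved, -0.62 in the deposited table and -0.59 with scaling to the 75th percentile of miRNAs detected on all arrays. It was -1.33 when the arrays were scaled to labelling spike-ins, RNAs added in a fixed amount, a scaling under which the median of all 151 miRNAs was -0.78. The difference of miR-181b-5p was -2.28 with quantile normalization of log2 values that hold the placeholder, -1.06 with the 75th percentile of miRNAs detected on all arrays and -1.45 with the spike-ins. With normexp, a background correction followed here by adding a constant of 50 to each signal, both members came near 0, at -0.11 and -0.06.

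The fitted profile of miR-181b-5p was not among those closest to miR-181a-5p. Likeness was measured as the root mean square difference of normalized log2 values over the 8 arrays, after centring each miRNA on its own mean. The 5 closest to miR-181a-5p were miR-195-5p (0.179), let-7g-5p (0.179), miR-99b-5p (0.180), miR-26a-5p (0.203) and miR-100-5p (0.205). Their fitted differences lay between -0.42 and -0.56. miR-181b-5p took place 74 of 150 at 0.473, beside a median of 0.484 over all 150. Seen from miR-181b-5p, miR-181a-5p took place 4, after miR-29c-5p (0.351), miR-30e-5p (0.438) and miR-204-5p (0.464) and before miR-30e-3p (0.478), beside a median of 0.794. The measure favours miRNAs with a small difference and spread, and the values of miR-181b-5p at the floor enter it as constants.

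Among other miRNAs known from lymphocytes and inflammatory signalling, some were higher in the TULP group. Of 11 listed, 9 were in the fit, and 4 were up-regulated in the TULP group with more than 2-fold change, beside 5.3% of all 151; none passed the test in the other direction. They were miR-146b-5p, which restrains NF-κB signalling (2.90, SE 0.38, adjusted p = 0.0032), miR-223-3p of myeloid cells (2.10, SE 0.26, adjusted p = 0.00313), miR-142-3p of blood cells (2.01, SE 0.47, adjusted p = 0.0163) and miR-21-5p, induced in many wounds (1.76, SE 0.15, adjusted p = 0.000785). The values are log2 differences by limma with Benjamini-Hochberg adjustment over all 151 miRNAs, n = 4 per group. miR-142-3p was detected on 6 of 8 arrays, with a sham mean of 1.67 near the floor of 0.96, so the size of its difference depends on the floor. miR-21-5p held the same normalized value, 11.5, on all TULP arrays (SD 0), so its SE takes no spread from that group. The median of the 9 was 0.89, against -0.02 over all fitted. miR-150-5p, made in mature lymphocytes, had -0.59 (SE 0.22, adjusted p = 0.0737).

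Lists of cell type markers were examined too. The normalized signal summed over 6 leukocyte miRNAs, 5 of them fitted and miR-142-5p detected on no array, was 54.8 to 78.0 in the sham group and 96.5 to 168 in the TULP group. All 6 also belong to the lymphocyte and inflammatory list, so this is not a separate result. Of the 5 fitted, 2 were called higher, miR-223-3p and miR-142-3p, beside 5.3% of all 151. The rest did not pass, and miR-150-5p among them was lower (-0.59). Of 5 striated muscle miRNAs, 4 were fitted, and 3 of these were lower in the TULP group at an adjusted p under 0.05. The share over all 151 was 16.6% in that direction and 30.5% in either. The remaining fitted one was higher (0.25) without passing. The summed signal of this list was 4043 to 5659 in the sham group and 2639 to 4637 in the TULP group, and the ranges overlapped. None of the 7 fitted epithelial, 2 smooth muscle or 1 endothelial miRNAs passed, and their summed signals overlapped too. For the epithelial list they were 488 to 675 in the sham group and 387 to 938 in the TULP group. Smooth muscle had 648 to 928 in the sham group and 634 to 1315 in the TULP group. Endothelial miR-126a-3p had 116 to 152 in the sham group and 116 to 137 in the TULP group. A sum is set by the brightest miRNAs of a list. The median difference was -0.68 over the fitted epithelial miRNAs and -0.28 over those of smooth muscle, beside -0.73 over those of striated muscle. miR-126a-5p of the endothelial list and miR-499-5p of the striated muscle list were detected on no array. The part of these shifts in the miR-181 values was not tested.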

How the data were processed

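Total RNA of 8 prostatic urethras, 4 per group, was labelled with Cy3 and hybridized to an Agilent rat miRNA array (1806 probes for 758 miRNAs, 12128 spots, 0 saturated). Per the labels and the file headers, images were read with Feature Extraction 10.7.1.1, and the deposited intensity is a background-subtracted signal on a linear scale, not normalized between arrays. The authors also deposited a table of quantile-normalized log2 values for 780 features, used as an alternative. The arrays lay on 1 slide, in 1 scan and 2 slide rows, and detected 136 to 156 miRNAs each. The number of arrays limits the precision, and replicates are separate animals.

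The total signal of a probe was used where it exceeded 3 times its error, a rule that gave the detection calls of the files with 0 mismatches. Signals of passing probes were summed per miRNA, set to 0.1 where no probe passed, quantile normalized over the 758 miRNAs, and converted to log2 after values under 1.94 (log2 0.96), the median over arrays of the lowest detected value, had been set to this floor. The 151 miRNAs detected on at least 4 of 8 arrays entered a linear model with group alone (limma 3.58.1, R 4.3.3). The procedure was tested on simulated data.

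The members, the marker lists, the lymphocyte and inflammatory list and the tests were chosen with earlier results of these data known. Named are all miR-181 features, the 5 miRNAs closest in profile to each fitted member, and called members of the lists. Beyond this rule, miR-150-5p, miR-126a-3p, miR-142-5p and the miRNAs carried into stored totals were named after their values were seen. All members matched the RefSeq sequence table. Alternatives were the stored totals, the deposited table with limma and with the methods' t-test, other scalings, floors, filters and detection limits, the slide row and the replicate number as blocks, and leaving out each array.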

Additional observations from a re-analysis of the deposited data

Results flagged for a closer look

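In the sham group, probe 1 of miR-181d-5p had a signal of 0.371 on sham replicate 2, far from the other 3 sham arrays. The gap to the nearest of them was 0.859 of the whole range. Of 19 groups of 4 arrays examined in this way, this was the 1 that stood apart, and chance gives about 5% of groups. The probe did not pass the detection rule on any array.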

How the results depend on the processing

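The lower normalized signal of miR-181a-5p in the TULP group kept its direction under every alternative run except the stored totals, where it reversed to 2.31. It was -0.11 with normexp, -1.11 both without normalization and with scaling to the 75th percentile of all miRNAs (which lay at the placeholder), -1.33 with spike-in scaling and -0.91 within slide row 1. Without normalization the median of all tested miRNAs was -0.55, and with spike-ins -0.78. miR-181b-5p was lower under every alternative in which it could be fitted: -3.38 with stored totals, -5.12 in the deposited table by limma and by the methods' t-test, -0.060 with normexp, -2.28 by quantile normalization with control features on log2 values, -2.18 with the floor halved and -0.40 with it doubled. Its call was lost in 13 of 24 alternatives, the blocks on slide row and replicate number among them. It could not be fitted where detection on all arrays or 4 times the error was required.

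Leaving out each array in turn gave -0.73 to -0.51 for miR-181a-5p and -1.25 to -1.11 for miR-181b-5p without a TULP array. Without a sham array miR-181b-5p fell under the filter of 4 detections. With the tested miRNAs kept, an alternative chosen after seeing the data, it was -1.60 (without sham replicate 1) to -0.99. The other alternatives chosen after seeing the data were all probes summed, the brightest probe alone, 2 and 4 times the error and the values within slide rows.

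The number of miRNAs called, 14, became 1 with normexp, 8 with detection on all arrays, 34 (29 lower) both without normalization and at the 75th percentile of all miRNAs, and 53 (48 lower) with spike-in scaling, against 6 of 14 lower as reported. Leaving out 1 array gave 9 (without TULP replicate 3) to 21 (without TULP replicate 1). The methods' t-test gave 17, and 13 after Benjamini-Hochberg adjustment. Equal replicate numbers did not pair the arrays, with correlations of deviations of 0.13, -0.10, 0.27 and -0.10, and with the replicate number as a block the differences were -0.61 and -1.18 and the count 11. The cause of these moves was not tested.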
